A study of Rattus norvegicus with 6 samples.

Results

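Growth factors that act through receptor tyrosine kinases were followed in primary rat Leydig cells with and without exosomes of Sertoli cells. The set held 10 genes of 4 families. They were the platelet-derived growth factor receptors Pdgfra and Pdgfrb with the ligand chains Pdgfa and Pdgfb, the fibroblast growth factor receptors Fgfr1 and Fgfr2, the epidermal growth factor receptor Egfr with its ligand Hbegf, and the receptor Kit with its ligand Kitlg. Members were found by matching the RefSeq accession of each array probe to these symbols, which gave 18 probes among the 30367 on the array, and all 10 genes among 15168 genes with a symbol. The rule is a list of names with no threshold on a measured value. Of the 18 probes, 14 entered the test because they were well above background on at least 3 arrays, and every gene kept at least 1 such probe that was above background on all 6 arrays.

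The study compared 2 groups of 3 samples of primary Leydig cells from Sprague-Dawley rats, the testosterone-producing cells between the seminiferous tubules. Both were cultured at 34 °C in 5% CO2, in medium holding 10% fetal bovine serum. Exosomes, small vesicles that primary rat Sertoli cells release, were present at 5 µg/ml for 24 h in 1 group and absent in the other, called untreated here. Total RNA was labelled with Cy3 and read on 6 Agilent 1-colour arrays. The labels do not say whether replicates came from separate animals, so p-values measure the spread between these samples, which may be technical. The animals' age is not stated.

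Values below are log2 intensities minus the 75th percentile of the same array, so 0 stands for that percentile. A change is the exosome mean minus the untreated mean on this log2 scale, with its standard error (SE) and n = 3 arrays per group. Passing the test means an adjusted p under 0.05 in limma with Benjamini-Hochberg adjustment over all 20427 tested probes. A gene is represented by its brightest tested probe. Intensities of different probes depend on their sequences, so levels of different genes are not ranked.

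The 3 untreated arrays shared 1 scan, exosome arrays 1 and 2 shared another, and exosome array 3 had its own. Scan, taken here as slide, and treatment therefore cannot be told apart. A random block for slide cannot separate them either, since no slide held both groups. With that block, 1 of the 10 genes was higher and 3 were lower, the counts of the fit without it. The share of gene spots clear of background ranged from 67.2% to 75.6%. Among 10976 tested genes the median change was -0.19, and quantile normalization moved it to 0.01, so each change is read beside that shift. Of the Leydig cell markers Cyp11a1, Star, Insl3 and Hsd3b1 were above background on all 6 arrays, while Lhcgr and Nr5a1, the luteinizing hormone receptor and a steroidogenic transcription factor, were above it on 0 arrays. Cyp11a1, which starts steroid synthesis, fell by 0.86 (adjusted p = 0.00998 in limma), also past the test under quantile normalization (-0.83) and with any 1 array removed. Cyp11a1 was the only 1 of 5 tested Leydig cell markers past the test, so 20.0% were lower, beside 29.0% of all tested genes. Star (-0.26), Insl3 (-0.29), Cyp17a1 (-0.30) and Hsd3b1 (0.18) did not pass. The part of the Cyp11a1 fall in the results below was not tested. All 8 macrophage, all 6 peritubular myoid and all 8 stromal progenitor markers looked for were above background on all 6 arrays.

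All of these receptors cross the membrane once and carry a tyrosine kinase inside the cell. A ligand brings receptor molecules together, they phosphorylate each other, and adaptor proteins then start the RAS, PI3K and STAT routes. In the testis, PDGF-A made in the tubules acts on PDGFRA of interstitial cells and is needed for adult Leydig cells to form. Kit ligand comes mainly from Sertoli cells, and its receptor KIT is found on spermatogonia, Leydig cells and mast cells.

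Probe signals of Pdgfra were higher, and those of Fgfr1 and Hbegf lower, in exosome-treated than in untreated cells. Pdgfra and Hbegf each rested on 1 probe. Pdgfra stayed past the test in 10 of 14 alternatives. Fgfr2 was lower by its brightest probe and higher by another. Of the 10 genes, 1 was higher and 3 were lower past the test. Over all tested genes 14.6% were higher and 29.0% lower, so these shares lie near the background. The other 6, Pdgfrb, Pdgfa, Pdgfb, Egfr, Kit and Kitlg, did not pass. The median change of the 10 genes was -0.35. In 2 genes all exosome arrays lay above all untreated arrays, and in 4 genes they lay below, where 24.2% and 37.7% of all tested genes did so.

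**Figure D1:**
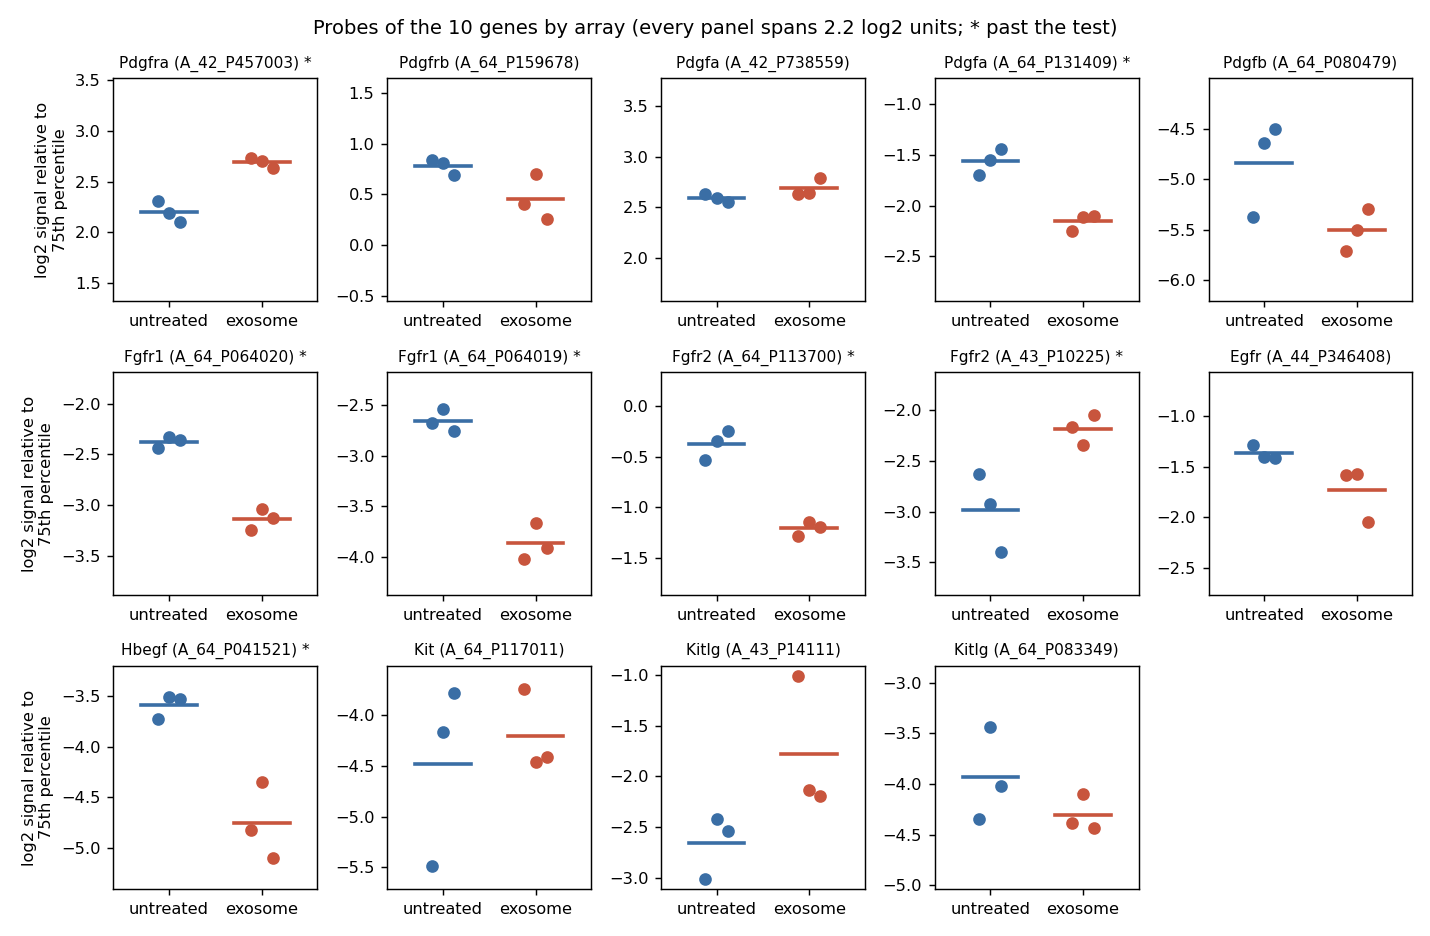
Log2 signal relative to the 75th percentile of the array (vertical axis, 2.2 units in each panel) for the 14 tested probes of the 10 genes, with 3 untreated arrays in blue and 3 exosome arrays in red; bars are group means and an asterisk marks probes past the test. The brighter Fgfr2 probe fell from a mean of -0.38 to -1.21, while the dimmer rose from -2.98 to -2.18.

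Pdgfra encodes the receptor that binds PDGF-A and marks interstitial mesenchyme and Leydig progenitors. Untreated cells gave signals of 2.31, 2.19 and 2.11, and exosome-treated cells 2.73, 2.71 and 2.64. The lowest exosome array stood above the highest untreated array, and each array's value is a mean of up to 10 spots of 1 probe. The rise was 0.49 (SE 0.11, adjusted p = 0.019 in limma), or 1.41-fold. It missed the test without untreated 2, without untreated 3 and without exosome 1, with changes of 0.49, 0.44 and 0.47. The summed signal of 8 other stromal progenitor markers, in multiples of the 75th percentile, was 52.2 to 56.5 in untreated and 47.3 to 49.5 in exosome-treated samples. Most of this sum was Dcn, whose change of -0.09 missed the test at adjusted p = 0.516 in limma. No other of the 8 read above 2.63 (Igfbp6 on untreated 3). Of these 8, 0 rose (1 at an unadjusted p below 0.05 in limma and 1 past the test under quantile normalization). Igfbp6, Gsn and Osr1 fell, 3 of 8 or 37.5%, beside 29.0% of all tested genes. The part of these markers in the result was not tested. In bulk RNA, fewer cells of a type and less RNA per cell cannot be told apart.

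The stretch of 250 bases before the RefSeq start of Pdgfra is shown as the promoter of the member that rose, on the minus strand of chr14:33408517-33408766 in assembly GRCr8. Capitals mark a CCAAT box (CCAAT, here on the opposite strand) and an AP-1 element (TGANTCA). Each motif was searched on both strands.
Pdgfra: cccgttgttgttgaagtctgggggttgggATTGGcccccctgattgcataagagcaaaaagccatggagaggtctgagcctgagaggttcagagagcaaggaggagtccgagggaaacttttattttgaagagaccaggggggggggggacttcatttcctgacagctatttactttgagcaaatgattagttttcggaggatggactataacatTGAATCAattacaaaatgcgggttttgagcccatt
The CCAAT letters occur in 34.0% of 33469 RefSeq promoters of the same length and the AP-1 letters in 6.34%. GC boxes (GGGCGG) had 0 matches there, against 30.5% of promoters with at least 1, and the TATA box (TATAAA) and cAMP response element (TGACGTCA) had none either. Of the 8 members with an entry in that table, Pdgfra alone held the AP-1 letters. A match describes letters only.

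Pdgfrb, the receptor of PDGF-B on pericytes and smooth muscle, had 0.84, 0.81 and 0.69 on untreated arrays. The exosome arrays gave 0.41, 0.70 and 0.25. The groups overlapped, and the change of -0.33 (SE 0.15) missed the test at adjusted p = 0.114 in limma. Without exosome 2 it was past the test at -0.45. Within each array, Pdgfra minus Pdgfrb was 1.47, 1.38 and 1.41 in untreated cells and 2.33, 2.01 and 2.38 in exosome-treated cells. This difference needs no scaling between arrays, and it was larger on every exosome array, by 0.82 on average. The exact two-sided permutation test gave p = 0.10, the smallest that 3 against 3 arrays allow, and 0.13 after adjustment over the 9 pairs compared. The 6 markers of peritubular myoid cells, which contract the tubule wall, summed to 43.4 to 46.6 multiples of the 75th percentile in untreated and 27.4 to 34.2 in exosome-treated samples. Of them 0 rose (0 also at an unadjusted p below 0.05 in limma and under quantile normalization), beside 14.6% of all tested genes. Tagln, Myl9 and Des fell, 3 of 6 or 50.0%, beside 29.0% of all tested genes. The part of these markers in the Pdgfrb value was not tested.

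Pdgfa encodes the ligand chain that binds PDGFRA, and 2 of its probes were tested. The brighter, spotted 10 times, read 2.63, 2.59 and 2.56 on untreated and 2.63, 2.64 and 2.79 on exosome arrays. The groups overlapped, and the change was 0.09 (SE 0.11, adjusted p = 0.526 in limma). The dimmer probe read -1.70, -1.55 and -1.44 on untreated arrays against -2.25, -2.11 and -2.10 on exosome arrays. Here all exosome arrays were lower, and the fall of 0.59 (SE 0.12) passed the test at adjusted p = 0.015 in limma. It missed the test under median centring (-0.37) and without untreated 2, untreated 3 or exosome 1 (-0.58, -0.53 and -0.54). The gap between both probes widened from a mean of 4.16 (SD 0.17) to 4.84 (SD 0.079), so the 2 probes named for Pdgfa did not change alike. Both carry the same RefSeq accession, and their positions in the transcript are not used here.

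Pdgfb, the chain that binds both PDGF receptors and is made chiefly by endothelium, was dim. Its brighter probe read -5.37, -4.64 and -4.50 on untreated and -5.71, -5.50 and -5.30 on exosome arrays. Untreated 1 lay among the exosome arrays. The change was -0.66 (SE 0.25, adjusted p = 0.071 in limma) and moved to -0.93, past the test, without untreated 1. It also passed with normexp background correction (-0.40) and among probes above background on all arrays, and under quantile normalization it was -0.16. A second probe was above background on 0 arrays. Of 6 tested endothelial markers, 2 rose (Pecam1 and Kdr) and 4 fell (Sox18, Eng, Esam and Cdh5). These were 33.3% and 66.7%, beside 14.6% and 29.0% of all tested genes. Under quantile normalization 2 rose and 2 fell, with Eng at -0.39 and Cdh5 at -0.03. The 7 on the array summed to 1.09 to 1.23 in untreated and 1.34 to 1.62 in exosome-treated samples. Pecam1 weighed most in this sum, with -0.70, -1.05 and -1.26 on untreated and 0.08, -0.25 and 0.21 on exosome arrays. No other of them read above -2.08 (Kdr on exosome 1). Tek was above background on 0 arrays. Their part was not tested.

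Fgfr1 is the main fibroblast growth factor receptor of mesenchyme. Its brighter probe fell from -2.44, -2.33 and -2.36 to -3.25, -3.04 and -3.13. The dimmer fell from -2.68, -2.54 and -2.76 to -4.02, -3.67 and -3.91. No array of either group reached into the other with either probe. The falls were 0.77 (SE 0.11, adjusted p = 0.010 in limma) and 1.21 (SE 0.14, adjusted p = 0.010 in limma), or 1.70-fold and 2.31-fold. Both probes kept their direction and stayed past the test in all 14 alternatives, with changes of -0.82 to -0.48 for the brighter and -1.31 to -0.74 for the dimmer. The dimmer fell further on every exosome array: the gap between them was 0.24, 0.21 and 0.41 on untreated and 0.77, 0.62 and 0.78 on exosome arrays.

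Fgfr2, whose splice forms respond to different fibroblast growth factors, gave opposite answers by probe. The brighter probe read -0.54, -0.34 and -0.25 on untreated arrays and -1.28, -1.14 and -1.20 on exosome arrays. Its fall of 0.83 (SE 0.13, adjusted p = 0.010 in limma) was past the test in all 14 alternatives. The second tested probe read -2.62, -2.92 and -3.40 on untreated arrays and -2.16, -2.34 and -2.05 on exosome arrays. It rose by 0.80 (SE 0.21, adjusted p = 0.027 in limma), and the groups did not overlap in either probe. That rise missed the test without untreated 2, untreated 3, exosome 1 or exosome 3 (0.83, 0.59, 0.79 and 0.73) and with no filter on dim probes. The difference between both probes shrank from 2.09, 2.58 and 3.15 to 0.87, 1.20 and 0.85, a change of -1.63 whose exact two-sided permutation p was 0.10 and adjusted p 0.13. Averaging both probes gave a change of -0.02 (SE 0.12, adjusted p = 0.918 in limma). A value for Fgfr2 as a gene thus depended on the probe. Of 265 genes with 2 tested probes that were both past the test, 122 had probes that went opposite ways.

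Another Fgfr2 probe, above background on 2 untreated and 0 exosome arrays, was not tested. It was at least 1.5-fold higher in untreated cells, taking for each exosome array the dimmest signal that counted as above background where the probe lay under it. The last was above background on 1 untreated and 0 exosome arrays, and no fold is given. All 4 probes carry the same RefSeq accession, and which splice form each reads is not used here. The 250 bases before the RefSeq start of Fgfr2, the member whose probes disagreed, lie on the minus strand of chr1:194280915-194281164 (GRCr8). Capitals mark a CCAAT box on the opposite strand and 2 GC boxes, 1 on each strand.
Fgfr2: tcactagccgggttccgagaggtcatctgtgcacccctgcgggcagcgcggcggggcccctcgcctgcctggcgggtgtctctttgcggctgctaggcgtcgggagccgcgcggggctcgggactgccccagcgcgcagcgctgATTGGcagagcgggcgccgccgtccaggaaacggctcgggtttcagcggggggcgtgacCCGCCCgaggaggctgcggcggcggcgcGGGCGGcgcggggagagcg
Its share of G and C was 76.8%, against 47.2% in Pdgfra and a median of 51.2% over all promoters in the table. GC boxes were found in 6 of the 8 members with an entry, and CCAAT boxes in 3.

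**Figure D2:**
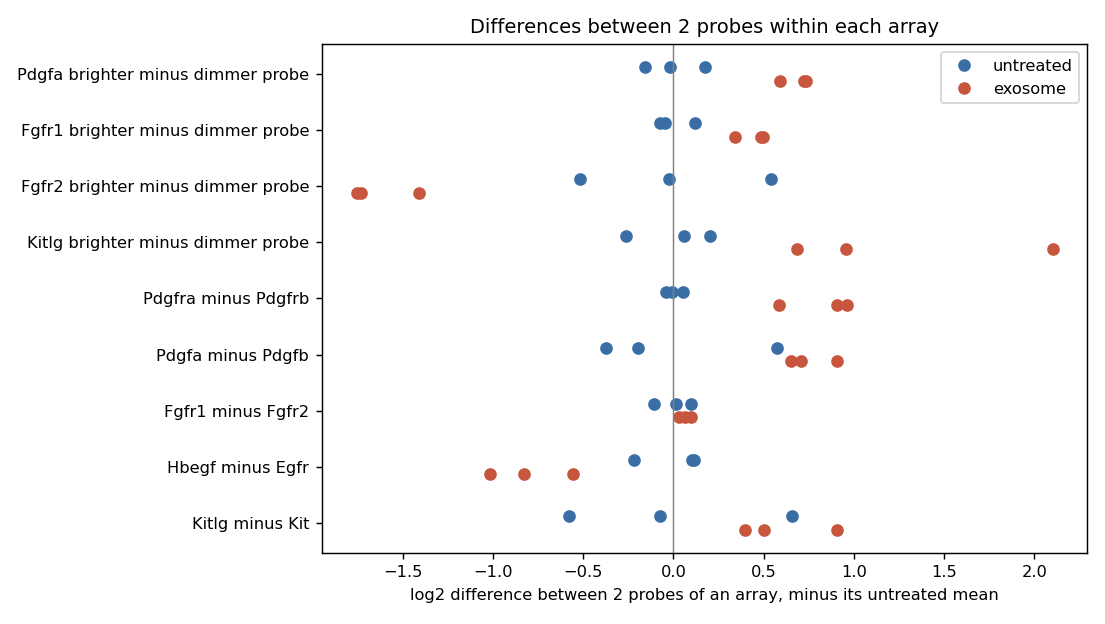
Log2 difference between 2 probes of the same array, minus the untreated mean of that difference (horizontal axis), for 4 genes with 2 tested probes and 5 pairs of genes; each point is 1 array, untreated in blue and exosome in red. The exosome arrays stood apart from the untreated ones in 7 of the 9 pairs, and Fgfr1 minus Fgfr2 and Kitlg minus Kit overlapped.

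In each of these 7 pairs the exact two-sided permutation p was 0.10, the smallest possible. These pairs were chosen after the values were seen, and no share over other probe pairs was taken. Of single tested genes, 24.2% lay apart with exosome arrays higher and 37.7% with them lower. The count of 7 is therefore not read as a trait of these genes. Fgfr1 minus Fgfr2, by their brightest probes, changed by 0.066, with overlap between the groups (exact two-sided permutation p = 0.40).

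Egfr, the receptor of several EGF-like ligands, read -1.28, -1.40 and -1.41 on untreated and -1.58, -1.57 and -2.05 on exosome arrays. The groups did not overlap, yet the change of -0.37 (SE 0.16) missed the test at adjusted p = 0.109 in limma and in all 14 alternatives. Exosome 3 was the lowest, and without it the change was -0.21.

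Hbegf encodes a membrane-bound EGF-like ligand that is shed to act on EGFR. It fell from -3.72, -3.51 and -3.52 to -4.82, -4.35 and -5.10. Every exosome array was below every untreated array. The fall of 1.17 (SE 0.21, adjusted p = 0.012 in limma) was 2.25-fold, the only fall over 2-fold among the representing probes. It stayed past the test in all 14 alternatives, with an adjusted p of up to 0.0499 and changes of -1.37 to -0.62. Hbegf minus Egfr within an array fell from -2.44, -2.11 and -2.12 to -3.24, -2.78 and -3.05, a change of -0.80. The 8 markers of macrophages, cells known to make HB-EGF, summed to 16.6 to 18.0 in untreated and 4.95 to 16.2 in exosome-treated samples. The lowest sum came from Cd68, which read -3.45 on exosome 3 and 3.15 to 3.46 on the other arrays. Without exosome 3 the treated range was 14.2 to 16.2, and without Cd68 the sums were 6.75 to 7.51 and 4.85 to 6.02. Of the markers 0 rose (0 also at an unadjusted p below 0.05 in limma and under quantile normalization) and 4 fell, C1qa, C1qc, Cd74 and Adgre1. Those that fell were 50.0% of the list, beside 29.0% of all tested genes. Under quantile normalization 2 fell, as Cd74 (-0.67) and Adgre1 (-0.43) missed the test. Csf1r did not pass by its brightest probe (0.05), while its other tested probe fell by 1.09 (adjusted p = 0.013 in limma). The part of these markers in the fall of Hbegf was not tested.

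Kit, the receptor of stem cell factor, was dim and uneven. It read -5.49, -4.17 and -3.78 on untreated and -3.74, -4.46 and -4.41 on exosome arrays. The groups overlapped, untreated 1 stood lowest, and the change was 0.28 (SE 0.45, adjusted p = 0.646 in limma). Without untreated 1 it was -0.23. Of 7 mast cell markers on the array, Tpsab1 and Ms4a2 were above background on 0 arrays, Hdc rose, and Fcer1a and Cpa3 were lower past the test. Of the 5 tested, 20.0% were higher and 40.0% lower, beside 14.6% and 29.0% of all tested genes. Cpa3 was above background on 3 untreated and 0 exosome arrays, so it entered the test through the untreated arrays alone. On the scale of the values printed here, it was at least 1.52-fold higher in untreated cells. That bound did not hold with normexp background correction (-0.36) or under quantile normalization (-0.54), where the falls were smaller. Under quantile normalization 2 rose, Hdc (1.55) and Mcpt1, and 0 fell, with Fcer1a at -0.22 and Cpa3 at -0.54. The summed signal of the 7 was 0.175 to 0.204 in untreated and 0.215 to 0.296 in exosome-treated samples. Hdc weighed most in this sum, with -3.35, -3.93 and -4.11 on untreated and -2.56, -2.97 and -2.28 on exosome arrays. No other of the 7 read above -4.65 (Tpsb2 on untreated 2), so the sum says little of the rest. Of 7 germ cell markers, Ddx4, Sycp3 and Prm1 were above background on 0 arrays, 0 of 3 tested rose (0 also at an unadjusted p below 0.05 in limma and under quantile normalization). Prm2 fell by 0.46, 1 of 3 or 33.3%, beside 29.0% of all tested genes. Under quantile normalization Prm2 had 0.015, and 0 of the list fell. The 7 germ cell markers summed to 1.16 to 1.19 in untreated and 1.13 to 1.32 in exosome-treated samples. Most of this sum was Uchl1, which did not pass (0.07). No other germ cell marker read above -3.21 (Zbtb16 on untreated 3), so the sum says little of the rest.

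Kitlg, the ligand of KIT, also had probes that parted. The brighter read -3.01, -2.42 and -2.53 on untreated and -1.01, -2.14 and -2.20 on exosome arrays. All exosome arrays were higher, and exosome 1 stood far above the other two. The change was 0.88 (SE 0.35) and missed the test at adjusted p = 0.081 in limma. It was past the test in the authors' table and under quantile normalization (1.11 in each), under median centring and among probes above background on all arrays. Without exosome 1 it was 0.49. The dimmer probe read -4.35, -3.44 and -4.02 on untreated and -4.39, -4.10 and -4.43 on exosome arrays, with overlap and a change of -0.37 (SE 0.24, adjusted p = 0.252 in limma). Its sign turned under quantile normalization (0.030). Another probe was above background on 0 arrays. The 7 Sertoli cell markers on the array, cells that make Kitlg, summed to 19.5 to 26.8 in untreated and 12.2 to 14.5 in exosome-treated samples. Most of this sum was Clu, which read 3.98, 4.20 and 4.53 on untreated and 3.14, 3.44 and 3.07 on exosome arrays. No other marker of the list read above 1.11 (Wt1 on exosome 3), so the sum says little of the rest. Amh was above background on 0 arrays. Of the 6 tested, Clu and Inha fell by their brightest probes. By brightest probes 16.7% rose and 33.3% fell, beside 14.6% and 29.0% of all tested genes. Wt1 rose by 0.49 with its brightest probe, while its other tested probes fell by 1.09 and 1.16, all 3 past the test. Their part was not tested.

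**Figure D3:**
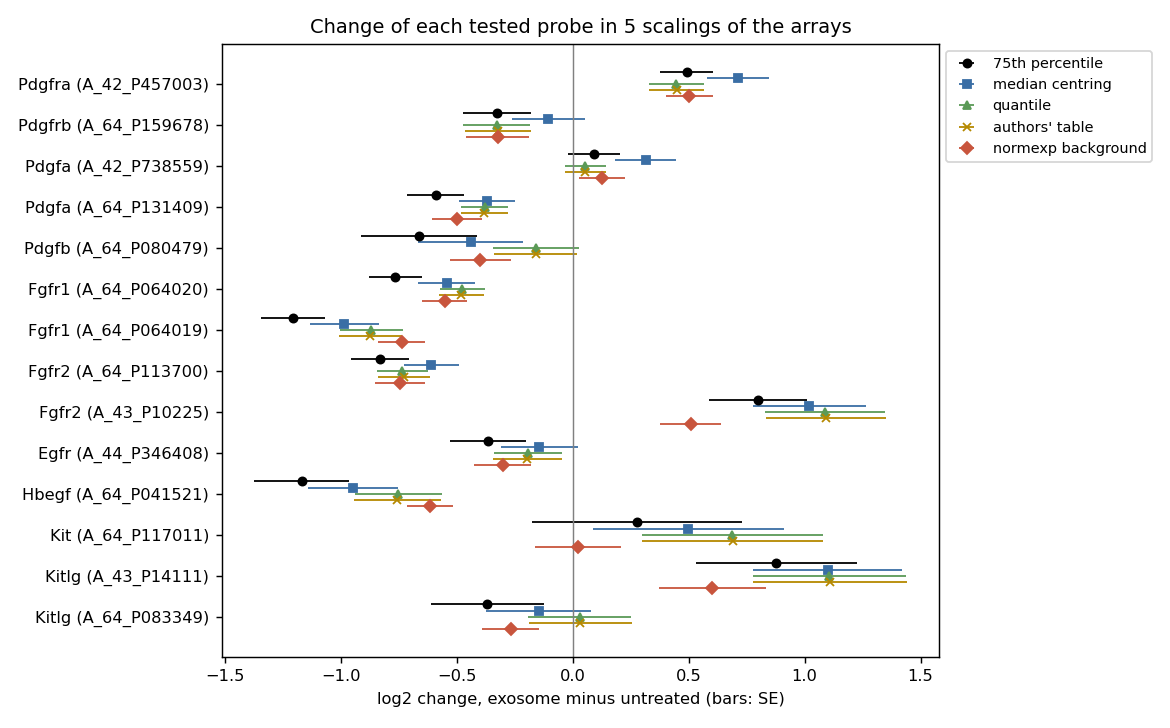
Log2 change, exosome minus untreated, of each of the 14 tested probes (horizontal axis) with 5 scalings of the arrays; bars are SE. The probes past the test kept their direction in every scaling, and the dimmer Kitlg probe turned from -0.37 to 0.030 under quantile normalization.

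The probes of the 4 members past the test had many near twins over the 6 arrays. By the root mean square distance between log2 profiles, each centred on its own mean, the nearest gene to Pdgfra was Tmem229a (0.032), to Fgfr1 the olfactory receptor gene Or1e28 (0.030), to Fgfr2 the vesicle tethering gene Trappc1 (0.033) and to Hbegf Ltbp3, which binds latent TGF-beta (0.036). Between 64 and 174 genes lay within 0.1 of each.

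Other genes of these pathways moved both ways. Of 136 listed genes in 6 lists, 102 were tested, and 17 rose and 23 fell, with a median change of -0.06. Those shares were 16.7% and 22.5%, beside 14.6% and 29.0% of all tested genes. Quantile normalization gave 20 and 7, and without untreated 2 the counts were 4 and 2. Of the 23 that fell, 18 were above background on all exosome arrays, and 5 (Erbb3, Rhbdf2, Il17rd, Plaur and Lif) entered the test through the untreated arrays.

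**Figure D4:**
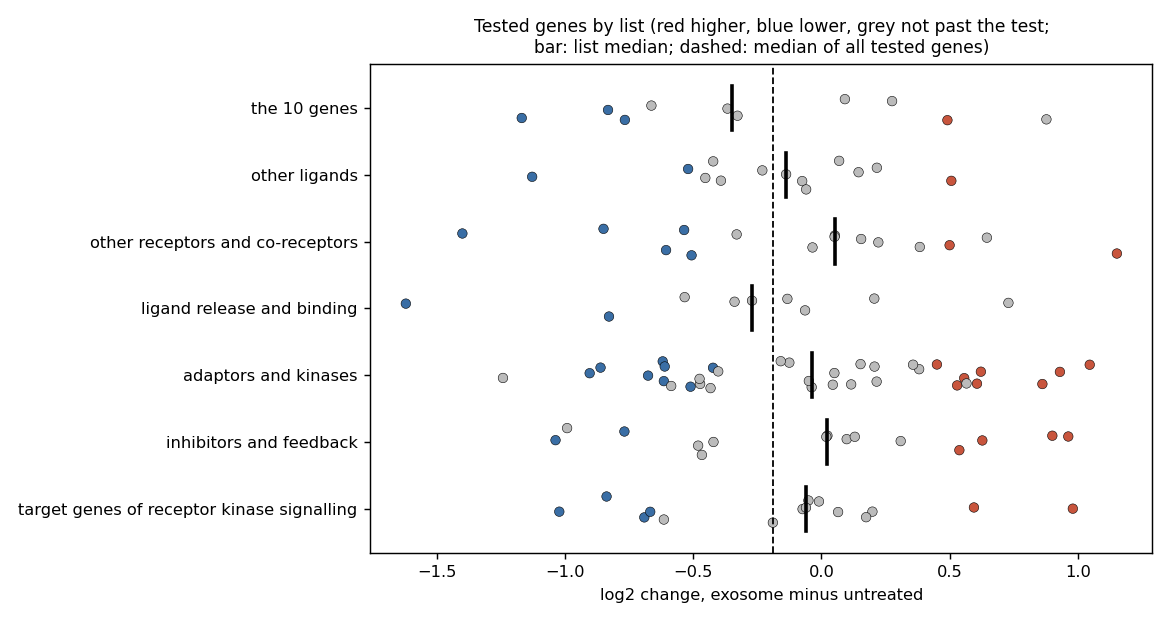
Log2 change, exosome minus untreated (horizontal axis), of the 10 genes and of the tested genes of each pathway list, red where higher and blue where lower past the test; short bars are list medians and the dashed line is the median of all tested genes, -0.19. Every list holds genes on both sides of 0, and only ligand release and binding holds none past the test on the higher side.

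Of 13 other ligands tested, 1 rose and 2 fell, 7.7% and 15.4% beside 14.6% and 29.0% of all tested genes. Tgfa, transforming growth factor alpha and a ligand of EGFR, rose by 0.51 (SE 0.13, adjusted p = 0.026 in limma), from 1.01, 0.85 and 0.66 to 1.31, 1.30 and 1.44, while its second probe did not pass (-0.32). Fgf1, acidic fibroblast growth factor, fell by 1.13 (SE 0.27) and Fgf18 by 0.52 (SE 0.12). Fgf18 did not pass under quantile normalization (-0.22). Egf itself was above background on 0 arrays. Without untreated 2, 0 ligands of the list passed in either direction.

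Of 15 other receptors and co-receptors, 2 rose and 5 fell, 13.3% and 33.3% beside 14.6% and 29.0% of all tested genes. Under quantile normalization 2 rose and 2 fell. Flrt3 and Flrt2, membrane partners of FGF receptors, rose by 1.15 (SE 0.20) and 0.50 (SE 0.16). Flrt3 went from -1.69, -1.76 and -1.96 to -0.31, -1.02 and -0.61 and passed with any 1 array removed. Sdc2 and Sdc4, heparan sulfate carriers that present growth factors, fell by 0.85 (SE 0.20) and 0.61 (SE 0.18), and Fgfr4 fell by 0.54 (SE 0.15) but had -0.04 under quantile normalization.

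Of 9 genes of ligand release and binding, 0 rose and 2 fell, 0.0% and 22.2% beside 14.6% and 29.0% of all tested genes. Of the 9, 1 rose at an unadjusted p below 0.05 in limma, and 0 rose past the test under quantile normalization. Adam17, the protease that sheds HB-EGF and TGF-alpha, read -1.65, -1.36 and -1.13 on untreated and -2.13, -1.85 and -2.64 on exosome arrays, a fall of 0.83 (SE 0.24, adjusted p = 0.033 in limma). Rhbdf2, an inactive rhomboid that matures ADAM17, fell by 1.62 (SE 0.45, adjusted p = 0.030 in limma) and was above background on 2 exosome arrays. Under quantile normalization both missed the test, with -0.64 and -1.15.

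Of 35 adaptors and kinases, 8 rose and 8 fell, 22.9% each, beside 14.6% and 29.0% of all tested genes. Quantile normalization gave 9 and 3. Sos1, which loads GTP onto RAS, rose by 1.05 (SE 0.19), although its other probe fell by 1.08. The adaptor Nck1 rose by 0.62 (SE 0.12). Pik3r2, a regulatory subunit of PI3K, fell by 0.90 (SE 0.18), and the adaptor Shc1 by 0.68 (SE 0.14), with its other probe down by 1.39. Without untreated 2, 1 of the list rose and 1 fell.

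Of 15 inhibitors and feedback genes, 4 rose and 2 fell, 26.7% and 13.3% beside 14.6% and 29.0% of all tested genes. The counts were 4 and 1 under quantile normalization and 1 and 1 without untreated 2. Errfi1, which binds and inhibits EGFR, rose from 2.17, 1.98 and 1.92 to 2.96, 2.73 and 3.08. That is a change of 0.90 (SE 0.14, adjusted p = 0.011 in limma), and it passed with any 1 array removed. Socs5, a suppressor of cytokine and EGFR signalling, rose by 0.96 (SE 0.17), and Dusp6, the ERK phosphatase, by 0.63 (SE 0.12). Il17rd, an FGF antagonist also called Sef, was lower by 1.04 (SE 0.17), but it was above background on only 1 exosome array and missed the test under quantile normalization (-0.44).

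Of 15 target genes of receptor kinase signalling, 2 rose and 4 fell, 13.3% and 26.7% beside 14.6% and 29.0% of all tested genes. Quantile normalization gave 2 and 0. Egr2, an immediate early transcription factor, rose from -1.02, -0.96 and -0.91 to -0.04, -0.14 and 0.22, a change of 0.98 (SE 0.13, adjusted p = 0.010 in limma). The AP-1 subunit Fosl1 rose by 0.59 (SE 0.15). The urokinase receptor gene Plaur was lower by 0.84 (SE 0.20), with 2 exosome arrays above background. The cytokine gene Lif was lower by 1.02 (SE 0.27), with 1 exosome array above background, and neither passed under quantile normalization (-0.39 and -0.45). Without untreated 2, 1 of the list rose and 0 fell.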

How the data were processed

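RNA of 6 samples was read on 1-colour arrays. Per the file headers, the authors' files hold intensity values made with Agilent Feature Extraction 11.0.1.1, corrected within each array for background and for spatial trend, with 0 or 1 flags in other columns, on an array design of build rn4. The authors' deposited table of all samples holds log2 values whose columns share 1 median (5.68), and its steps are not given in the sources used here. It served as an alternative.

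Spots with an outlier flag were left out, spots of a probe averaged as log2, and each array's 75th percentile subtracted. A probe was tested if above background on at least 3 arrays. limma 3.58.1 in R 4.3.3 fitted both groups over 20427 probes, and code was tested on simulated data. The summaries used Python 3.11.15. Symbols and promoters came from RefSeq tables of assembly GRCr8 by accession. The members and lists were chosen with earlier results of these data known. All 10 members are named, and of each pathway list the up to 4 genes of smallest p, plus Flrt2 and marker genes, chosen after their values were seen. Differences between 2 probes of an array were also added after the values were seen. Alternatives were normexp with an offset of 50 (on the median spot signal, since no mean signal was used here), quantile and median scaling, the authors' table, 2 filters, slide and replicate blocks, a 2-fold minimum, the mean of a gene's probes, and leaving out each array. The number of arrays limits the precision.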

Additional observations from a re-analysis of the deposited data

How the results depend on the processing

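The 14 tested probes of the 10 genes had 14 alternatives each, 196 values in all, of which 170 kept their direction and side of the threshold, 14 lost the call, 9 gained it and 3 changed sign. The sign changes were Kit without untreated 1 (-0.23, with 0.63 as the highest value when an array was left out) and the dimmer Kitlg probe under quantile normalization (0.030) or from the authors' table (0.033). The gene higher past the test numbered 1 (Pdgfra). It numbered 2 under quantile normalization, median centring, the authors' table and the filter of all 6 arrays, 0 with the replicate block and 0 with a 2-fold minimum, and 0 to 1 when arrays were left out. The 3 genes lower numbered 1 with the 2-fold minimum and 3 to 4 when arrays were left out.

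Pathway genes higher numbered 17, against 11 with no filter, 11 with the replicate block, 2 with the 2-fold minimum and 4 to 19 leaving out arrays. Those lower numbered 23, against 7 under quantile normalization, 9 under median centring, 7 in the authors' table, 13 with no filter, 5 at 2-fold and 1 to 22 leaving out arrays. Over all genes, 1603 were higher, against 2630 under median centring, 863 with no filter, 781 with the replicate block, 164 at 2-fold and 135 to 1717 leaving out arrays, lowest without untreated 2. Lower were 3183, against 1767 under quantile normalization, 1820 under median centring, 1781 in the authors' table, 878 at 2-fold and 818 to 3278 leaving out arrays. The cause of these shifts was not tested.

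Samples of the same replicate number did not deviate together (r of -0.09, -0.03 and -0.02 over 20410 probes), so the numbers were not taken as pairs. With the replicate block, Pdgfra (0.49) and the rising Fgfr2 probe (0.80) missed the test at adjusted p = 0.054 and 0.0503 in limma, and Pdgfb (-0.66) passed it at 0.045.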
